A study of Mus musculus with 4 samples.

Results

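Chromatin that stays accessible inside genes was followed through the dedifferentiation of mouse chondrocytes, the cells that build and maintain cartilage. Sites were taken from ATAC-seq, in which a transposase cuts DNA where it is not wrapped into closed chromatin, so that the cut sites pile up as peaks. Peaks that overlapped by at least 1 bp were merged across libraries, and a site was kept when every one of the 4 libraries had a peak in it, when it overlapped the body of a protein-coding gene of RefSeq (assembly GRCm38.p6) and when it lay more than 1 kb from the start and end of every annotated gene. This left 21390 gene-body sites of 170325 merged sites on chromosomes 1 to 19 and X, and of 55259 sites that were open in all 4 libraries. The other open sites were 17229 gene-end sites, which lay no further than 1 kb from an end of any gene, and 16640 intergenic sites. The presence of a peak in each library and the position chose the sites, so neither is a finding.

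The cells were articular chondrocytes of neonatal C57BL/6 mice with no genetic change and no drug treatment. P0 cells had been cultured for less than a day, P8 cells had been passaged 8 times as a monolayer, and there were 2 libraries of each passage. The labels do not tie a library to an animal or a culture, so the spread between libraries may be technical, and the peak names carry no replicate number, so the libraries are called A and B of each passage. The number of peaks was 145703 and 119974 in the P0 libraries and 89610 and 99784 in the P8 libraries, and the genome-wide background, which follows sequencing depth, was 1.42 and 1.18 reads at P0 and 1.02 and 0.979 reads at P8. Peaks lay within 1 kb of an end of Col2a1, Acan and Sox9, defining genes of chondrocytes, in all 4 libraries. Of 20 cartilage matrix genes, 12 had such a peak in all 4 libraries. Of the markers of other cells, 3 of 10 for blood, 4 of 10 for endothelium, 4 of 10 for muscle, 5 of 10 for neurons, 6 of 10 for fat and 2 of 10 for bone cells had such a peak in all 4 libraries. Ptprc of blood cells, Cdh5 and Pecam1 of endothelium, and Adipoq of fat cells had none in any library. In the same lists Spi1 of blood cells, Flt1 and Esam of endothelium, and Pparg of fat cells had one in all 4. Mef2c, a transcription factor gene of chondrocytes, also had none in any library.

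Accessible sites inside genes are mostly of 2 kinds. Some are enhancers, short stretches that bind transcription factors and act on a promoter at a distance, often that of the gene they lie in. Others are internal promoters, from which a shorter transcript of the same gene starts. Enhancers differ more between cell types than promoters do, and in chondrocytes the transcription factor Sox9 acts through enhancers of the genes of collagens II, IX and XI.

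Of the gene-body sites, 1135 (5.31%) overlapped an annotated start inside their own gene, that is, the window from 250 bases before to 50 bases after a RefSeq start, and these lay in 1056 genes. The DNA of the gene-body sites themselves was not analysed here, since only start windows came with their sequence. The 200 bases before the start are printed for the internal starts of cartilage matrix genes and chondrogenic transcription factors, and for the start with the largest rise and the largest fall at P8 among those whose 200 bases were covered over at least 100 bases. They are read from RefSeq (GRCm38.p6), 5′ to 3′ on the strand of the gene. Capitals mark matches on either strand to GGGCGG (SP and KLF factors), CCAAT (NF-Y), TATAAA (the box bound by TBP), TGANTCA (AP-1), TGTGGT (RUNX), GGAATG (TEAD) and CCGGAA (ETS).
Col9a1, chr1:24195003-24195202, plus strand: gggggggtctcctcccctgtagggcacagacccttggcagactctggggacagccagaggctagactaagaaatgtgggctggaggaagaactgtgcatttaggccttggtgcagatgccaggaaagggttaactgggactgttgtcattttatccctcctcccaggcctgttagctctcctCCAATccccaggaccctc
Hdac4, chr1:92180342-92180541, minus strand: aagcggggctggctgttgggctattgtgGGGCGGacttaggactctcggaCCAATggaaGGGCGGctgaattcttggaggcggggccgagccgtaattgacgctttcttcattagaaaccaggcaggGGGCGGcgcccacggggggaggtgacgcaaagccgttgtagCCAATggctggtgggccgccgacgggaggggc
Mef2c, chr13:83523456-83523655, plus strand: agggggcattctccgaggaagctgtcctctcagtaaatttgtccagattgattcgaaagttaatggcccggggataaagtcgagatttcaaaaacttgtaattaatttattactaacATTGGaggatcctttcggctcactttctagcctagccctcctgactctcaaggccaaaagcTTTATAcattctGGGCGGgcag
Runx1, chr16:92697330-92697529, minus strand: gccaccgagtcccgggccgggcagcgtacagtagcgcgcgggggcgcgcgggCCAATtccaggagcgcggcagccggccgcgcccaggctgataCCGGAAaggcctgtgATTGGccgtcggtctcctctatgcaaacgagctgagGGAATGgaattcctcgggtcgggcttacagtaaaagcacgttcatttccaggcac
Foxp1, chr6:99028299-99028498, minus strand: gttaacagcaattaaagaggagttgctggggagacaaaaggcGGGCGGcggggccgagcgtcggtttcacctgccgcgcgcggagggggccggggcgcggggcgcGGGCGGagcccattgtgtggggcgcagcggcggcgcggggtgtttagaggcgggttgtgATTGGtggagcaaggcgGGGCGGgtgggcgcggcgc
Foxp1, chr6:99520994-99521193, minus strand: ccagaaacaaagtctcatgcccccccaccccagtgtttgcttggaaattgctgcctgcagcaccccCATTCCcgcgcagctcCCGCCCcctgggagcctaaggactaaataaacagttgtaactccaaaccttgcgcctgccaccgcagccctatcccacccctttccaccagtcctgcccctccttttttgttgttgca
Sox6, chr7:115824711-115824910, minus strand: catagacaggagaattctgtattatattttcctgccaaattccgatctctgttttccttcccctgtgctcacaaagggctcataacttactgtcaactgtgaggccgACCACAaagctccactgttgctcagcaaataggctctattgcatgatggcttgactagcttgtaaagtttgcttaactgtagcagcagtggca
Akr1c14, chr13:4059391-4059590, plus strand: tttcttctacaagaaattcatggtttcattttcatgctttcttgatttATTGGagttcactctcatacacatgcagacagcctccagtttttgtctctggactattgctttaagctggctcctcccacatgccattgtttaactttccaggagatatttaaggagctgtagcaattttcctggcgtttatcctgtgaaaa
Gm34653, chr2:34832807-34833006, plus strand: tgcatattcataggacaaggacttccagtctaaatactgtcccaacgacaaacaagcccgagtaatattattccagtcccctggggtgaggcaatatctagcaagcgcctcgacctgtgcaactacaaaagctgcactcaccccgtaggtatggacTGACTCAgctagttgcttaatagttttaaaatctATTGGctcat
Hdac4 encodes a deacetylase that restrains chondrocyte hypertrophy, Mef2c, Runx1, Foxp1 and Sox6 encode transcription factors, Col9a1 a chain of collagen IX, and Akr1c14 an aldo-keto reductase. The sites covered all 200 printed bases at Hdac4, Runx1, both starts of Foxp1, Sox6 and the predicted gene Gm34653, 148 at Akr1c14 and 23 at Mef2c. At Col9a1 the site of 1782 bp began downstream of the printed stretch and touched only the end of the window. The printed stretches of Hdac4, Runx1 and the first Foxp1 start held 16, 22 and 27 CpG, whereas those of Col9a1, Sox6 and Akr1c14 held 0, 2 and 1.

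The start windows under gene-body sites differed in base composition from start windows in general, which include starts without a peak. Open starts at gene ends were not set apart, so openness and place inside the gene cannot be told apart here. Of 1291 such windows, 76.2% held at least 10 CpG, against 43.5% of all 32851 windows, with a median of 18 against 7. GGGCGG was present in 59.3% of them and in 35.7% of all windows, and CCGGAA in 21.3% against 14.9%. TATAAA was present in 5.96% against 13.6%, TGTGGT in 13.6% against 16.8%, CCAAT in 35.4% against 37.4%, GGAATG in 13.8% against 14.7% and TGANTCA in 6.97% against 7.81%. The matches are letters only and no record of binding.

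The signal of a site was its fold enrichment, the number of reads piled up at the summit of the peak over the number expected from the surroundings. Each site was ranked by it within each library among the 55259 sites open in all 4, from 0 for the weakest to 100 for the strongest. The median rank of the gene-body sites was 45.3 and 44.6 in the P0 libraries and 44.8 and 45.4 in the P8 libraries. The passages overlapped, with a difference of 0.18 (P8 minus P0, exact two-sided permutation test over libraries, p = 0.667, smallest possible p 0.333). The median fold enrichment itself was 7.86 and 7.61 at P0, against 6.23 and 6.92 at P8, and it depends on depth.

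Gene-end sites ranked higher than gene-body sites in all 4 libraries, at 56.3 and 60.2 in P0 and 59.6 and 57.3 in P8. The gene-body sites differed from them by -13.3 ± 2.19 (SD over 4 libraries, exact two-sided sign-flip permutation test, p = 0.125, the smallest that 4 libraries allow). They also ranked below the intergenic sites in all 4 libraries, with a difference of -3.80 ± 1.15 (SD over 4 libraries, exact sign-flip permutation test, p = 0.125). By summit pileup the order of these classes turned, with gene-body sites 4.62 ranks above intergenic ones. The sites at internal starts stood apart from the other gene-body sites. Their median ranks were 56.2, 62.8, 62.1 and 58.6, against 44.3, 43.6, 44.1 and 44.8 elsewhere in the gene body, a difference of 15.7 ± 3.43 (SD over 4 libraries, exact sign-flip permutation test, p = 0.125). The median width was 735 bp at internal starts, 395 bp elsewhere in gene bodies, 687 bp at gene ends and 393 bp between genes.

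**Figure D1:**
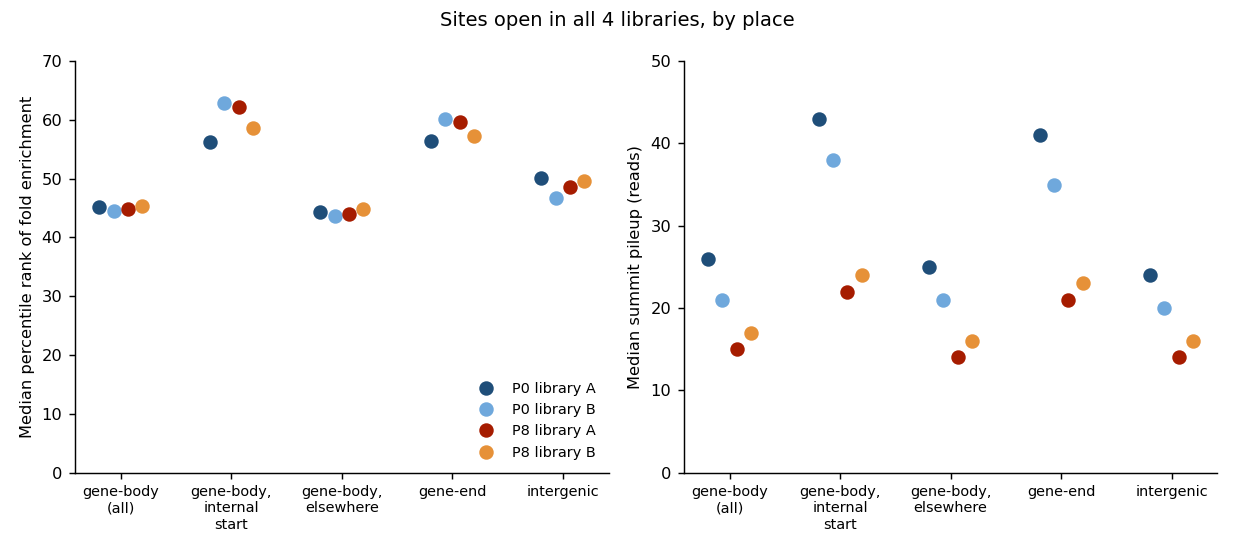
Median percentile rank of fold enrichment (left) and median summit pileup in reads (right) of sites open in all 4 libraries, by the place of the site; each point is 1 library. Gene-body sites at internal starts and gene-end sites lie above the other classes in both panels, and the pileups of the P8 libraries are lower in every class. Those libraries also have the lower background, 1.02 and 0.979 reads.

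Gene-body sites made up 38.7% of the sites open in all 4 libraries, and 44.2%, 46.6% and 45.0% of the sites with a peak in 1, 2 and 3 libraries. Gene-end sites made up 31.2% of those open in all 4 and from 13.6 to 16.8% of the others. Near the 1 kb limit, 561 sites from 1001 to 1250 bp from a gene end had median ranks from 30.0 to 37.8 in the 4 libraries, and 682 sites in genes just outside, from 751 to 1000 bp, from 25.6 to 27.7 in the P0 libraries and 28.0 and 27.5 in the P8 libraries. Both bands ranked below the median gene-body site in every library.

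The 10 sites with the highest lowest rank over the 4 libraries, chosen as strong in all of them, stood far above the median site. The highest rank in every library was held by a site of 348 bp in Chl1, which encodes an adhesion molecule of the L1 family, at chr6:103649001-103649348, with fold enrichments of 35.1 and 34.2 at P0 and 35.1 and 36.7 at P8. Its pileups were 127, 128, 121 and 117 reads, whereas the median gene-body site had 26 and 21 reads at P0 and 15 and 17 at P8. A site in Gphn, which encodes the scaffold protein gephyrin, followed with 24.4, 29.3, 28.9 and 26.8. Next came sites in Peak1 (a cytoskeletal pseudokinase, 22.4, 23.9, 22.7 and 21.8), Il31ra (a cytokine receptor, 22.4, 22.0, 22.1 and 21.0) and Cdk8 (a kinase of the Mediator complex, 21.2, 23.1, 22.7 and 22.1). The other 5 of the 10 highest lay in Cldn34d, Fgd4, Zfp407, Camk1d and Dmd, and those in Fgd4 and in the dystrophin gene Dmd were at internal starts. None of these 10 was called by limma (differences from -0.18 to 0.26 on the log2 scale, adjusted p from 0.0694 to 1). By pileup 4 of the 10 were called up. Their evenness follows in part from the choice and is a description.

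The sites were spread over 7455 of 21631 protein-coding genes. Of these genes, 3452 held 1 site, the median was 2, and 382 genes with 10 or more held 25.0% of all sites. The longest lists were in Nav2 (a neuron navigator, 35 sites), Arhgap26 (a GTPase-activating protein, 34), Vps13d (a lipid transfer protein, 29), the phosphodiesterase gene Pde4d (28) and the linker protein dystonin (Dst, 27). Dlc1 and Pakap held 26 each, and Aopep, Apbb2 and Gse1 25 each. The number of sites followed gene length (Spearman correlation 0.60 across 7455 genes, which are not independent replicates), with a median length of 283 kb for genes with 10 or more sites and 51.2 kb for all genes with a site.

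Per 100 kb, among genes with 5 or more sites, the order was another. Lipe, which encodes hormone-sensitive lipase, led with 26.4 sites per 100 kb, followed by Cd9 (a tetraspanin, 23.2), Kdm6b (a histone H3 demethylase, 22.9), Slc6a12 (a betaine transporter, 21.6) and Mxra7 (20.2). Flna, which encodes the actin cross-linker filamin A, had 18.9, Smarcd3 and Slc7a5 18.8 each, Synpo 18.1 and H13 17.8, against a median of 4.82 over the 1258 genes with 5 or more sites. None of the sites in these 10 genes was called between the passages by fold enrichment, while by pileup 5 of the 12 in Synpo and 1 of the 5 in Slc7a5 were called up.

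Along the gene the sites were spread almost evenly. For 16594 sites that lay in 1 gene with known strand, the gene body was cut into 10 equal parts from start to end, and each held from 8.11 to 11.1% of the sites, and 51.9% lay nearer to the start of the gene than to its end. The sites at internal starts were not even, with 293 in the first part and 16 in the last. The median rank was 35.7, 38.7, 37.7 and 36.2 in the first part and 48.8, 46.8, 45.5 and 47.0 in the last. Whether a site lay in an exon or an intron was not analysed here. Chromosome X carried 6.61 sites per Mb of gene body, and the autosomes from 18.99 to 24.5.

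P8 was then compared with P0 site by site to ask which gene-body sites gained or lost signal while keeping a peak in every library. The smallest pileup of a gene-body site was 6 reads in each library. Of the 21390 gene-body sites, 1316 (6.15%) were called, against 5.44% of all sites tested. Of these, 609 (2.85% of the gene-body sites) rose and 707 (3.31%) fell at P8 (limma on log2 fold enrichment brought to 1 distribution over libraries, Benjamini-Hochberg adjusted p under 0.05 over all 55259 sites). Of all sites, 2.39% rose and 3.05% fell, so the gene-body shares were near the background. Of the gene-end sites 0.685% were called up and 1.60% down, and of the 1135 gene-body sites at internal starts 4 were called up and 10 down, shares that were not tested against each other. In bulk cells, fewer cells with a site open and less opening in each cell cannot be told apart. The sites that rose were weak at P0 and strong at P8 (median of the mean ranks 22.3 and 76.4), and those that fell went from 83.0 to 26.3. These ranks follow in part from the choice, since the calls used the same fold enrichments. By summit pileup 595 of the 609 moved the same way and 445 were also called up, with 2 called down, and 705 of the 707 moved the same way and 426 were also called down. Over all sites, 4.96% were called up and 4.03% down by pileup.

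The calls need both P0 libraries. Without P0 library A or without P0 library B no gene-body site was called by limma, although 1737 and 1204 sites were higher and 1376 and 1246 lower at an unadjusted p under 0.05. The balance of the 2 directions followed the scaling, with 271 up and 2572 down on the values as deposited, where the median of all sites moved by -0.20 on the log2 scale, and 1601 up and 872 down after centring on the median.

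Of the sites that fell, the largest change was in Ntrk2, which encodes the BDNF receptor TrkB, at chr13:59072252-59072578. Its fold enrichment was 15.4 and 12.7 at P0, against 4.30 and 4.02 at P8, with 48 and 35 reads against 8 and 8. The change was 3.06-fold (log2 -1.61 ± 0.19 (SE), limma adjusted p = 0.00526). In Ctnna1, the gene of the adherens junction protein alpha-catenin, the site at chr18:35240224-35240651 had 16.2 and 17.5 at P0 and 4.94 and 5.56 at P8. Next was a site in Pde4d, whose product degrades cyclic AMP, at chr13:109829450-109829855, with 16.8 and 19.4 against 4.94 and 6.57. A site in Ets2, which encodes a transcription factor of the ETS family, had 57 and 47 reads at P0 and 10 and 10 at P8. The other 6 lay in Dgki and Prkcb, which act in diacylglycerol signalling, in Apaf1 (the core of the apoptosome), Pcx (pyruvate carboxylase), Tshz2 and Nav3. For all 10 the P0 and P8 libraries did not overlap, changes were from -1.61 to -1.40, and limma adjusted p from 0.00311 to 0.0168. By pileup 9 of the 10 were called, and Pcx had an adjusted p of 0.0595.

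The largest rise was in Tg, which encodes thyroglobulin, at chr15:66728006-66728390, with fold enrichments of 3.37 and 2.92 at P0 and 7.87 and 7.73 at P8. This was a 2.70-fold change (log2 1.43 ± 0.20 (SE), limma adjusted p = 0.00720), and the pileups were 19 and 13 reads against 24 and 28. A site in Mbnl1, whose product regulates splicing, had 5.43 and 3.88 at P0 and 9.88 and 10.3 at P8, and one in Cd163l1, which encodes a scavenger receptor, had 5.80 and 5.95 against 11.4 and 13.6. In Adam12, which encodes a metalloprotease, the values were 7.04 and 3.66 against 10.8 and 10.6. The other 5 of the 9 sites described here lay in Ano4, Stox2, Sh3rf3, Nisch and Ranbp3l. The groups did not overlap at any of these 9, changes were from 1.22 to 1.43, limma adjusted p from 0.00554 to 0.0190, and all 9 were also called by pileup. The lack of overlap follows in part from the choice of these sites. Both P8 libraries lay above both P0 libraries at 11.6% of all sites tested in fold enrichment, and at 28.3% by rank. At 8 of the 9 sites P0 library B was lower than P0 library A, and at the site in Ano4 it was 3.66 against 7.86. In reads, P0 library B had 6 at the site in Sh3rf3 and 7 at those in Ano4, Adam12 and Nisch, near the smallest pileup of 6.

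**Figure D2:**
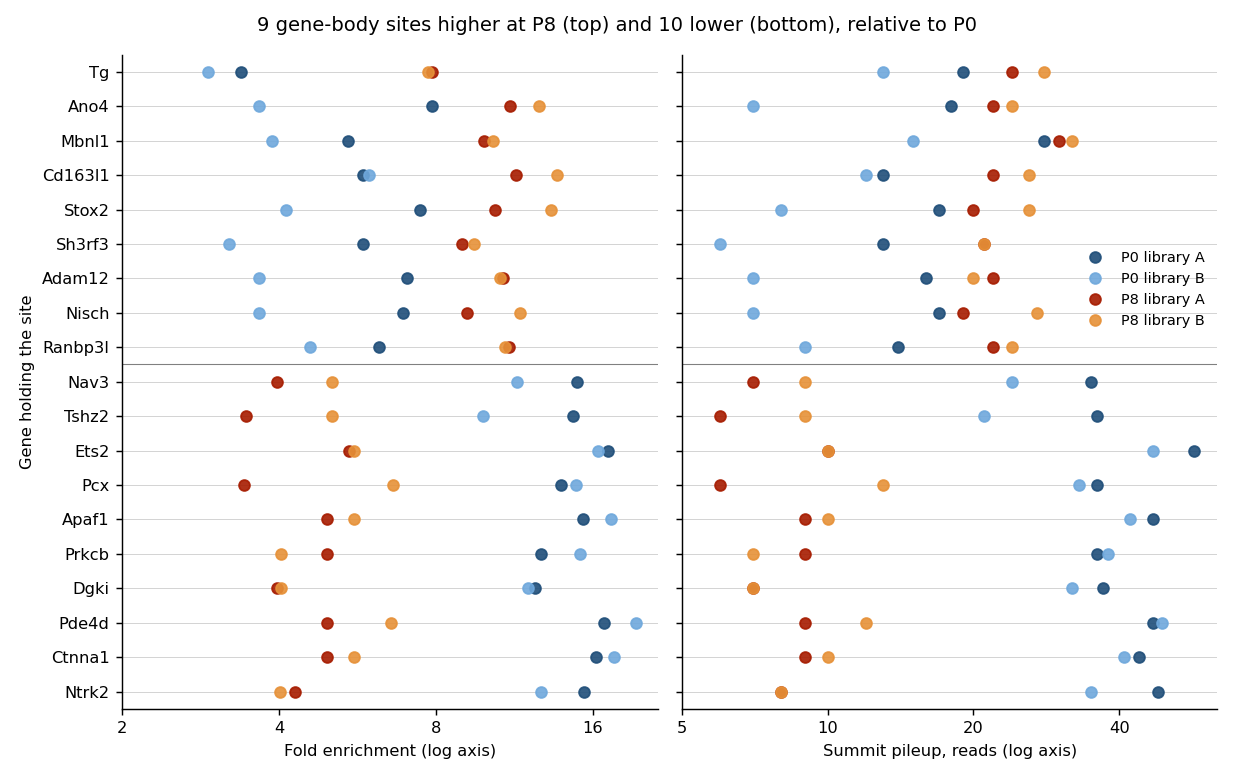
Fold enrichment (left) and summit pileup in reads (right), both on log axes, of 9 of the 10 gene-body sites with the largest rise and the 10 with the largest fall at P8; each point is 1 library. The P0 points (blue) and P8 points (red and orange) do not overlap at any site on the left, and at the sites that fell the P0 libraries had from 21 to 57 reads and the P8 libraries from 6 to 13. The lack of overlap follows in part from the choice of the sites. Of all sites tested, 11.6% have both P8 libraries above both P0 libraries in fold enrichment. By rank 28.3% have both above and 25.8% both below.

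Fold enrichment divides the pileup by a local background, the reads expected from the surrounding 10 kb, or from the genome where that is higher. This background was recovered from both deposited values and is given as a multiple of the lowest background of its library, so that 1 means surroundings with no more reads than the genome. The surroundings include the site itself and its neighbours. Over all gene-body sites the median background was 1.52 and 1.40 at P0, against 1.28 and 1.39 at P8. It was lower in both P8 libraries than in both P0 libraries at 8708 gene-body sites (40.7%), against 46% of all sites tested, and higher at 3274 (15.3%), against 14% of all.

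The cartilage matrix genes moved apart from this. Their products are the collagens and proteoglycans that give cartilage its stiffness. They held 47 gene-body sites in 12 of 20 genes. By fold enrichment 12 (25.5%, against 2.39% of all sites tested) were called up at P8 and none was called down (against 3.05%). The median difference was 0.46, against 0.01 over all sites. By pileup the same 47 sites had a median difference of -0.33, against -0.01 over all sites. Of them 1 (2.13%, against 4.96%) was called up and 13 (27.7%, against 4.03%) were called down. Their local background was lower in both P8 libraries at 38 of 47 sites (80.9%, against 46% of all sites). The share was 67.4% at gene-end sites and 71% at gene-body sites at internal starts. A background already at the lowest value at P0 cannot fall, and the median gene-body site stood at only 1.52 and 1.40 there. The median background was 6.61 and 5.69 times the lowest at P0 and 2.06 and 2.35 times at P8, a log2 difference of -1.34, against -0.10 over all sites. The median pileups were 40 and 35 reads at P0 and 17 and 19 at P8, and the median fold enrichments 4.79 and 5.03 against 5.61 and 6.57. At the median site the pileup was thus lower at P8, the background was lower by more, and the quotient of both was higher.

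Leaving out any of the 4 libraries kept the median background difference of the list between -1.45 and -1.26. Without P0 library A or B no cartilage matrix site was called by fold enrichment, with medians of 0.41 and 0.51, and without P8 library A or B 9 were called up and 0 down. On the values as deposited 9 were called up and 1 down, after median centring 23 up and 0 down, and on the mean of the peaks in a site 8 up and 0 down. On percentile ranks none was called by limma, and 21 were higher and 1 lower at an unadjusted p under 0.05. Without P0 library A these unadjusted counts were 15 and 0, and without P0 library B 18 and 1.

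Col27a1, a fibrillar collagen gene of cartilage, held 12 sites. All 12 had a positive difference in fold enrichment after the libraries were brought to 1 distribution, the smallest being 0.02. It was the only gene of the 382 with 10 or more sites whose differences in fold enrichment were all of one sign. By pileup its differences were positive at 3 sites and negative at 9, and those of 2 other genes, St7 and Stk39, were all of one sign. Of the Col27a1 sites 5 were called up by fold enrichment, and by pileup 2 were called down and none up. At chr4:63323369-63323824 the fold enrichment was 3.54 and 4.01 at P0, against 6.33 and 7.39 at P8 (log2 0.98 ± 0.19 (SE), limma adjusted p = 0.0204), with pileups of 36 and 30 against 18 and 21 reads and backgrounds of 6.67 and 5.69 against 1.96 and 2.02. At chr4:63260383-63260961 the fold enrichment stayed at 4.35 and 4.41 against 4.19 and 4.43, while the pileup fell from 52 and 43 to 12 and 14 reads (log2 -1.25 by pileup, limma adjusted p = 0.0233).

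Col9a1 held 7 sites, 2 called up by fold enrichment and 5 called down by pileup. At the site of 1782 bp beside the internal start printed above, chr1:24195250-24197031, fold enrichments of 6.29 and 6.62 at P0 and 6.98 and 6.85 at P8 stood beside pileups of 83 and 75 against 24 and 27 reads. Its background was 8.73 and 8.84 times the lowest at P0 and 2.53 and 3.15 times at P8. All 7 sites of Col9a1 had lower background in both P8 libraries, against 46% of all sites tested, and fewer reads, against 71.1% of all sites. The reads carry no correction for depth. Col11a1, the gene of a collagen XI chain, held 5 sites with 2 called up by fold enrichment and none called by pileup. Its strongest site, chr3:114099370-114099951, had fold enrichments of 8.58 and 9.20 against 10.1 and 11.8 and pileups of 60 and 53 against 24 and 32 reads. Matn2, which encodes the filament-forming protein matrilin-2, held 9 sites with none called, a median difference of 0.03 and a background difference of 0.04.

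Other genes of the list are named here after their values were seen. Col9a3 held 3 sites, 2 called up by fold enrichment and 2 called down by pileup, with a median background difference of -1.74. The single site in Prg4, the gene of the joint lubricant lubricin, behaved otherwise. Its fold enrichment was 9.52 and 5.03 at P0, against 10.3 and 11.5 at P8, it was called up by fold enrichment (limma adjusted p = 0.0473) and by pileup (0.0403), and its background was 1 and 1 against 1.12 and 1.30.

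**Figure D3:**
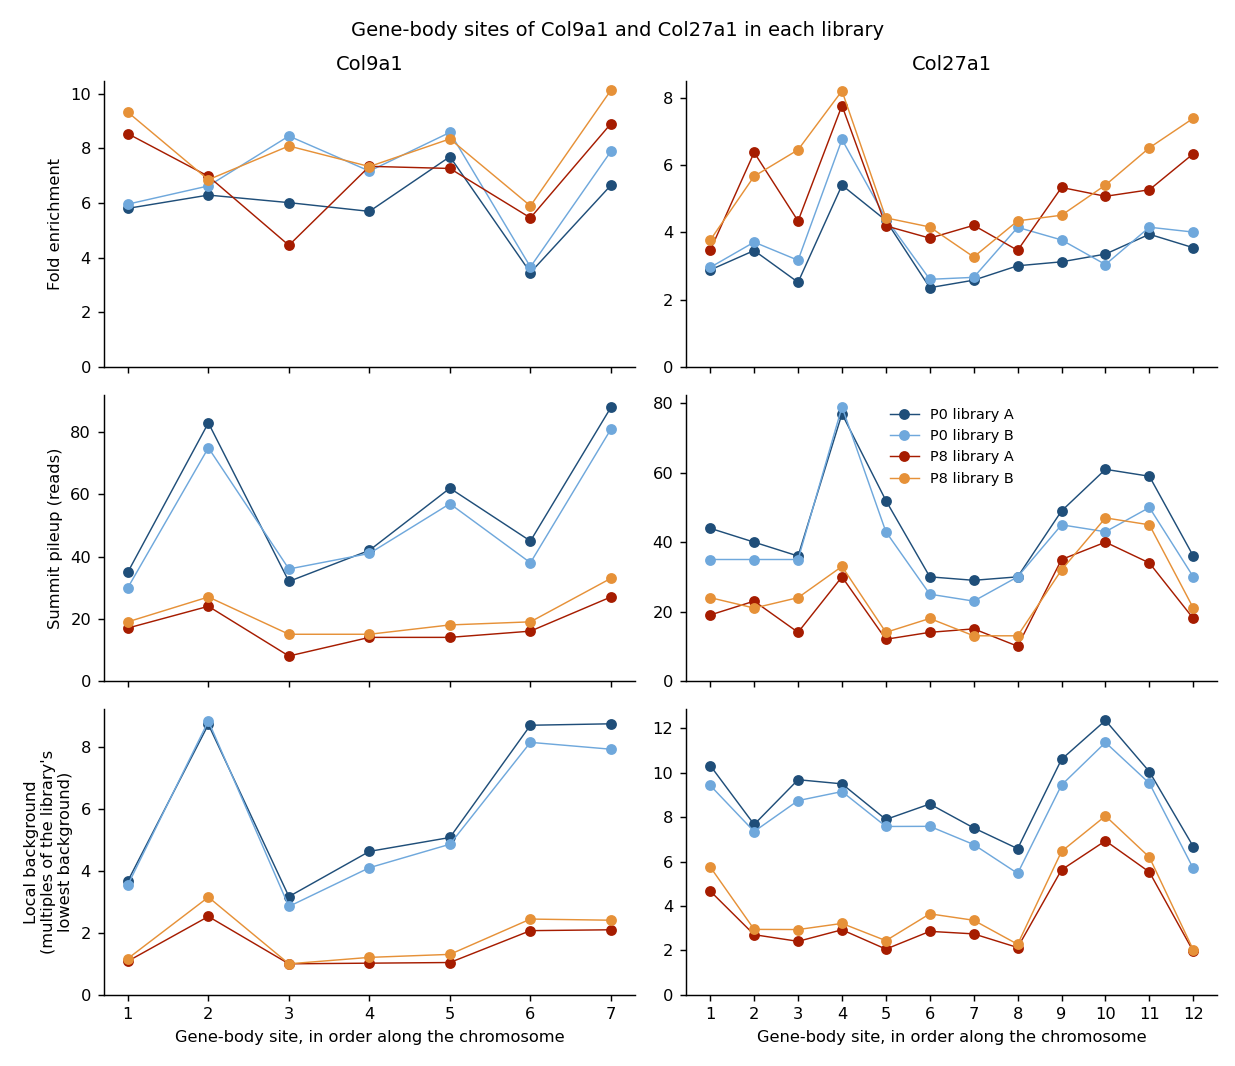
Fold enrichment (top), summit pileup in reads (middle) and local background in multiples of the library's lowest background (bottom) at the 7 gene-body sites of Col9a1 and the 12 of Col27a1, in order along the chromosome; each point is 1 library and lines join the sites of a library. Both P8 libraries lie above both P0 libraries at 5 sites of Col9a1 and 10 of Col27a1 in fold enrichment, where 11.6% of all sites tested do. They lie below both at 7 and 11 sites in pileup (reads with no correction for depth), against 71.1% of all sites, and at 7 and 12 sites in background, against 46% of all.

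Among the 2570 genes with 3 or more gene-body sites, 4 collagen genes of cartilage stood at the low end of the background difference, a ranking made after the pattern above had been seen. Other collagen genes did not share it, with medians of -0.23 over 8 sites in Col6a3 and 0.40 over 4 sites in Col5a1. Col9a1 was lowest with a median of -1.89, followed by Col9a3 (-1.74), Zfp385b (-1.42), Col11a1 (-1.39), Col27a1 (-1.37) and Trpv4, a calcium channel of chondrocytes (-1.15). Pth1r, the receptor for parathyroid hormone and its related protein in the growth plate, was at -1.10, and Ldlrad3, Gtf2f2 and Siah2 were at -1.12, -1.06 and -1.06. At the other end stood Dnah14 (1.04), Pdpn (0.99), Svep1 (0.82), the predicted gene Gm40862 (0.81) and Ttyh3 (0.80). Pdpn encodes podoplanin, a membrane glycoprotein of fibroblastic and lymphatic cells. Its site at chr4:143278168-143278985 had pileups of 28 and 30 reads at P0 and 41 and 43 at P8 in spite of the lower depth of P8, while its fold enrichment was 9.24 and 11.3 against 10.9 and 11.1, and its background 1.51 and 1.48 against 2.81 and 3.03. None of the 4 sites in Pdpn was called by fold enrichment, and 3 were called up by pileup.

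**Figure D4:**
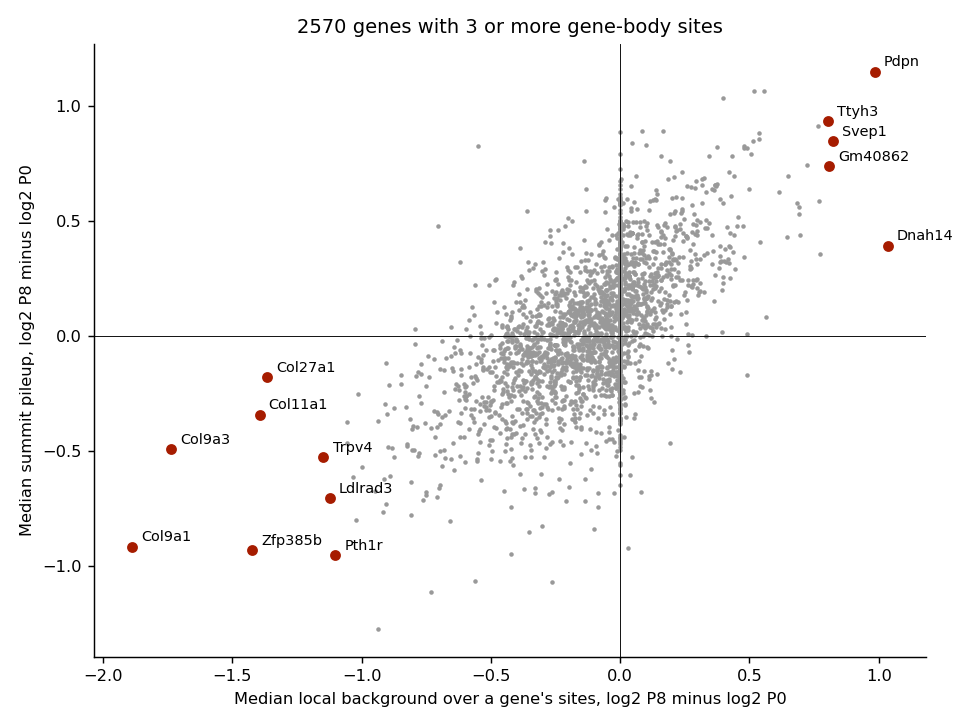
Median difference in local background (x axis) and in summit pileup (y axis) over the gene-body sites of each of 2570 genes with 3 or more sites, both as log2 P8 minus log2 P0; each grey point is 1 gene. Red points name the 8 genes with the lowest and the 5 with the highest background difference, from Col9a1 at -1.89 to Dnah14 at 1.04.

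The transcription factors of chondrocytes held 177 sites in 15 of 17 genes, with a median difference of 0.12. Of these sites 3 (1.69%, against 2.39% of all sites tested) were called up and 7 (3.95%, against 3.05%) down, shares near the background. By pileup 6 (3.39%, against 4.96%) were called up and 9 (5.08%, against 4.03%) down, with a median of 0.09. The median background difference was -0.15. Sox5 and Sox6, partners of Sox9 on cartilage genes, held 22 and 15 sites. One site of each fell. That in Sox6, chr7:115509592-115510370, had fold enrichments of 11.05 and 13.0 at P0 and 4.45 and 5.56 at P8, with 44 and 41 against 8 and 10 reads (log2 -1.08 ± 0.19 (SE), limma adjusted p = 0.0144). That in Sox5, chr6:143968017-143968528, had 9.81 and 7.91 against 4.45 and 4.04. The site at the internal start of Sox6 printed above was not called, with 7.64 and 7.53 against 5.96 and 6.31. Foxp1, a forkhead factor, held 22 sites with 1 called down, chr6:98972354-98972747, at 10.9 and 10.99 against 4.27 and 4.03. Zbtb20, a zinc finger repressor, held 19 sites, 2 called up and 1 called down, so by fold enrichment its sites moved in both directions. Nfia held 16 sites with 1 called down. Arid5b and Nfib each held 1 site called down and Trps1 1 called up. These 3 genes and Sox6, which is not among the 4 genes of the list with most sites, were named after their values were seen. Runx1 and Runx2 held 13 and 11 sites with none called by fold enrichment.

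At the printed starts outside that list, the site of Akr1c14 had fold enrichments of 5.80 and 6.87 at P0 and 9.89 and 11.2 at P8 (log2 0.96 ± 0.17 (SE), limma adjusted p = 0.0164). That of Gm34653 had 11.6 and 10.1 against 3.96 and 6.06 (log2 -0.97 ± 0.22 (SE), limma adjusted p = 0.0309). At both sites the P0 and P8 libraries did not overlap, which follows in part from their choice by size of change. Of all sites tested, 11.6% had both P8 libraries above both P0 libraries in fold enrichment. By rank 28.3% had both above and 25.8% both below.

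The matrix genes of fibroblasts held 59 sites in 13 of 20 genes, with a median difference of 0.00 in fold enrichment. Of these sites 1 was called up (1.69%, against 2.39% of all sites tested) and 5 were called down (8.47%, against 3.05%). By pileup the median was 0.21, with 6 called up (10.2%, against 4.96%) and 4 down (6.78%, against 4.03%). Col6a3, which encodes a chain of collagen VI, held 8 sites, of which 3 fell. The largest fall was at chr1:90775533-90776040, with 10.7 and 10.4 at P0 and 3.46 and 4.74 at P8 and 32 and 25 against 6 and 9 reads. Fbn1 (fibrillin-1) and Loxl2 (a lysyl oxidase) held 12 sites each. One site of Fbn1 was called down, none of Loxl2 was called by fold enrichment, and 4 of Loxl2 were called up and 1 down by pileup. Fbln1, the gene of fibulin-1, held 6 sites with 1 called up, chr15:85282137-85282374, at 4.14 and 4.58 against 7.91 and 10.4 (log2 1.21 ± 0.20 (SE), limma adjusted p = 0.0124). Tnc, named after its values were seen, held 1 of the sites that fell.

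The AP-1 family and its relatives held 34 sites in 9 of 20 genes. Of these sites 2 (5.88%, against 2.39% of all sites tested) were called up and 2 (5.88%, against 3.05%) down. Bach2, a repressor that competes at AP-1 sites, held 18 of them and both of those called up. Bach1 and Maff held 4 and 3, with none called. The site in Fosb, chr7:19307496-19308952, named after its values were seen, was called down by fold enrichment while its background was higher at P8. Its fold enrichment was 5.50 and 7.03 at P0, against 3.17 and 2.95 at P8 (log2 -0.96 ± 0.18 (SE), limma adjusted p = 0.0190). By pileup its log2 difference was 0.09 and it was not called, and its background was 8.16 and 6.84 times the lowest at P0 and 13.2 and 14.9 times at P8.

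The signalling lists and the actin and adhesion list had shares of calls near or below the background. These ran from 0.787 to 2.08% up and from 0.787 to 3.53% down, against 2.39% and 3.05% of all sites tested. Genes of TGF-beta and BMP signalling held 123 sites with 2 called up and 4 down, among them 19 in Ltbp1 (a binding protein of latent TGF-beta, 1 down), 18 in the co-receptor gene Tgfbr3 (1 up), 10 in Acvr1 (none called) and 9 in Bmpr1b (1 up). Hippo and TEAD genes held 85 sites with 1 up and 3 down, with 11 each in Tead1 (a DNA-binding effector, 1 up) and its cofactor Vgll4 (none called), 10 in Amotl1 (1 down) and 9 in Wwtr1, which encodes TAZ (none called). Genes of FGF, Hedgehog and Wnt signalling held 127 sites with 1 up and 1 down, with 13 in the receptor gene Ror1 and 12 in Gli2, whose single called site rose. In that list the background was lower in both P8 libraries at 61.4% of the sites, against 46% of all sites tested. Genes of the actin cytoskeleton and adhesion held 240 sites with 5 up and 7 down, and in Lpp and Palld, with 18 sites each, 1 rose and 2 fell. Tns3 and Arhgap24 held 17 sites each, with 1 up in Tns3 and 1 up and 2 down in Arhgap24.

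Markers of other cells held few gene-body sites except for the long neuronal genes. Blood, endothelial, muscle, fat and bone cell markers held 4, 15, 10, 5 and 6 sites. Called down were 1 in Pecam1 (6.67% of the endothelial sites) and 1 in the muscle calcium channel gene Ryr1 (10% of the muscle sites), against 3.05% of all sites tested. None was called up, against 2.39%. By pileup 1 site in Csf1r of blood and 1 in Mepe of bone were called up and that in Pecam1 down, against 4.96% and 4.03% of all sites. With so few sites these shares are no result about the markers. The 10 neuronal markers held 75 sites, 2 called up (2.67%, against 2.39% of all sites tested) and 7 down (9.33%, against 3.05%), and 5 up and 5 down by pileup (6.67% each, against 4.96% and 4.03%). There were 21 in Dlg2, 16 in Rbfox1 and 8 in Cntnap2. The part of other cells in these sites was not tested. Of the genes that the study had named for this assay, Fbln2 held 4 sites with none called and Sod3, an extracellular superoxide dismutase gene, 1 site that fell, at 9.12 and 8.09 against 3.85 and 4.35. Col1a1, S100a4, Ccl2, Ly6c1 and Gstm2 held no gene-body site. That list was chosen on these libraries and is no independent evidence.

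**Figure D5:**
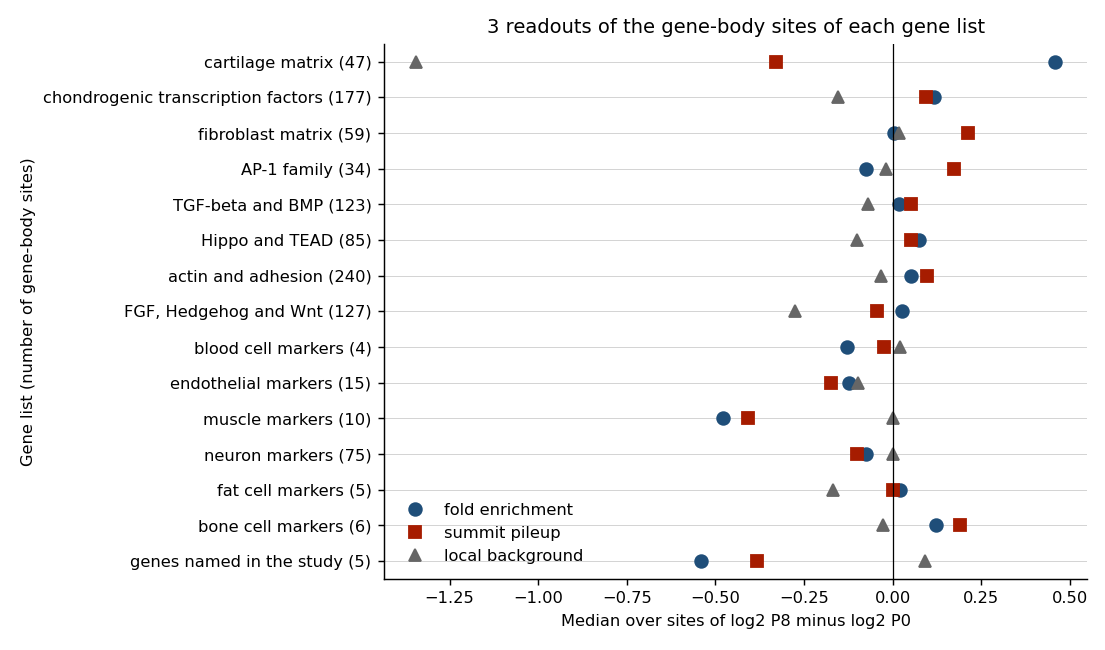
Median over the gene-body sites of each gene list of log2 P8 minus log2 P0 for fold enrichment (circles), summit pileup (squares) and local background (triangles), with the number of sites in brackets. The cartilage matrix list has a background of -1.34 and a pileup of -0.33 beside a fold enrichment of 0.46, and the other lists of 50 or more sites lie between -0.28 and 0.21 in all 3 readouts.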

How the data were processed

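ATAC-seq had been run on 2 P0 and 2 P8 libraries of mouse chondrocytes. The authors aligned the paired-end reads with Bowtie2 to mm10 and called peaks with MACS2 at default settings in each library, and the submitters' notes also name ChIPseeker, DiffBind and HOMER. For each peak the authors deposited the summit pileup (a signal in reads, with no correction for depth), the fold enrichment, a ratio of pileup plus 1 to local background plus 1, and −log10 p-values and q-values. A table of the authors' own comparison (fold changes and FDR) was not used here, and 0 columns with values per library were left unused. Total read counts are not given in the sources used here, so depth is known only through the background.

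Peaks were assigned to libraries by name prefix. Those on other chromosomes (5053) were left out, overlapping peaks (1 bp) were merged, and sites were placed with the RefSeq table of GRCm38.p6, which has no exons. Where a library had several peaks in a site, the highest fold enrichment and the highest pileup were taken, and the background came from the peak with the highest fold enrichment. The local background was (pileup + 1) divided by the fold enrichment, minus 1. Backgrounds were called non-overlapping beyond a tolerance of 0.001 of their value. The 270 listed genes were all in the gene table.

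Log2 fold enrichments were quantile-normalised over the 55259 sites and tested with limma 3.58.1 in R 4.3.3 (trend, two-sided, Benjamini-Hochberg over all sites, adjusted p under 0.05), a step tested on simulated data. Pileups were tested the same way. A common distribution keeps only the rank of a site, so a change shared by all sites cannot be seen. Single values were compared by exact permutation over libraries (scipy 1.17.1). The named sites were the 10 with the largest rise and fall among the called, the 10 with the highest lowest rank, the genes with most sites and most per 100 kb (at least 5 sites), up to 4 genes of each list, and the genes the study named; 1 site of the largest rises is not reported here. The sites, lists and tests were chosen with earlier results of these data known. The local background as a readout, and the pileup of each list, were added after seeing the data. A site must have a peak in every library, so sites that closed or opened fully are not among them. Alternatives were other scalings, the pileup, the mean of peaks, sites with 1 peak in each library, stronger sites, other distance limits and leaving out each library.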

Additional observations from a re-analysis of the deposited data

How the results depend on the processing

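The number of gene-body sites stayed within 1.5 times of 21390 under the other merging, distance and threshold settings. The counts called up (609) and down (707) did not. They were 0 and 0 on percentile ranks (2723 and 2521 at an unadjusted p under 0.05), 1601 up after median centring, 271 up and 2572 down as deposited, 1249 up by summit pileup, 322 and 332 on the mean of the peaks in a site, and 371 and 462 among sites above the median fold enrichment, where fewer sites were tested. Without 1 library the counts ran from 0 to 423 up and from 0 to 766 down, 0 in both directions without either P0 library and 308 up and 586 down without P8 library A. A fit with 1 P0 library assumes that it varies like the P8 libraries. On ranks among all peaks of a library the difference between passages became -7.47, since the P8 libraries had fewer peaks, and without 1 library it ran from -0.17 to 0.52. Gene-body sites ranked below intergenic ones under every alternative but summit pileup, where they ranked 4.62 above. Without 1 library that difference ran from -4.33 to -3.43, and against gene ends from -14.1 to -12.6. Of 210 refits of the 20 named sites none changed sign and 46 missed the threshold, 40 of them without a P0 library. No paired analysis was possible because the peak names carry no replicate number.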

Other observations

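Some gene-body sites lay in genes without any peak within 1 kb of a gene end or of an annotated start in any of the 4 libraries. There were 1397 such sites (6.53% of the gene-body sites) in 699 genes. The largest numbers were in Pde4d (28), the adhesion protein gene Tenm3 and the synaptic scaffold gene Dlgap2 (18 each), the neuronal splicing regulator gene Rbfox1 (16) and Gas7 (15). The median ranks of these sites were 51.9, 48.4, 48.6 and 48.1, against 44.4, 44.3, 44.6 and 45.1 in the other genes, and 78 of them (5.58%) were called down and 41 (2.93%) up at P8, against 3.15% and 2.84% of the other gene-body sites. By pileup 5.37% were called down and 6.30% up, against 4.70% and 5.81%. The differences between these shares were not tested. Starts that the RefSeq table does not list were not looked at.

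Chromosome X held 302 gene-body sites, of which 17 (5.63%) were called down and 4 (1.32%) up. On the autosomes the shares called down were from 2.56 to 4.96% and those called up from 1.73 to 4.26%. These shares were not tested against each other.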
